A study of Homo sapiens with 4 samples.

Results

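NRF2 binding was examined at 7 genes of its own circuit: KEAP1 and SQSTM1, which set the level of NRF2 protein, NFE2L2, which encodes NRF2, the small MAF genes MAFG, MAFF and MAFK, and BACH1. The genes were chosen for these roles, with earlier results of these data known. Every NRF2 ChIP-Seq summit within 20 kb of their hg19 gene bodies was taken. They are 7 of the 59792 genes in the RefSeq table used here. Summits near them numbered 10 of the 2030 summits of SC replicate 1, 31 of 6816 in SC replicate 2, 5 of 394 in ZMYND8 KO replicate 1 and 5 of 477 in ZMYND8 KO replicate 2.

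NRF2 is a transcription factor that switches on antioxidant and detoxification genes. It binds the antioxidant response element (ARE) as a dimer with a small MAF protein, and BACH1 pairs with the same small MAFs to occupy and repress such elements. In unstressed cells KEAP1 holds NRF2 for ubiquitination and degradation, and the autophagy receptor p62, product of SQSTM1, sequesters KEAP1. Several genes of this circuit are themselves known NRF2 targets, so the circuit contains feedback loops.

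The 4 libraries were made from MDA-MB-231 cells, an established line of human breast cancer, grown in MammoCult medium as floating spheres (mammospheres). ZMYND8 KO mammospheres carry a knockout of the chromatin reader ZMYND8, and SC (scrambled control) mammospheres are the comparison; their genotype field reads parental. Each genotype gave 2 libraries, immunoprecipitated with the same NRF2 antibody. The sources used here do not say whether the ZMYND8 KO cells are 1 clone or whether the duplicates were separate cultures, so p-values measure only the spread between these libraries, which may be technical.

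A summit is the base of highest signal in a peak, and its score was taken to be a −log10 q-value because the lowest score of all, 1.32, lay just above the −log10 of 0.05. The median score of a list was 6.16 (SC replicate 1), 3.65 (SC replicate 2), 9.86 (ZMYND8 KO replicate 1) or 8.69 (ZMYND8 KO replicate 2). Read counts, peak widths and a control library were not analysed here, so the depth is unknown and scores were compared mainly by rank within a list. The rank of a summit is 1 plus the number of summits with a higher score in its list. Summits of different lists within 200 bp were counted as 1 site. A gene without a summit is a gene without a called peak, which is not evidence that NRF2 was absent.

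The summits fell into 34 sites, of which 20 lay in a gene body, 5 before a gene start and 9 past a 3′ end. Of these, 3 sites were called in all 4 lists, 1 each in MAFG, KEAP1 and SQSTM1, and all of these lay inside the gene. They account for 3 of the 10 summits of SC replicate 1 at the 7 genes, against 229 of all its 2030 summits. Whole-list shares of recurrence within and between genotypes are given below. Sites in MAFG and NFE2L2 were called in 3 lists. A further 3 sites, at MAFG, MAFK and BACH1, were called in both SC lists and in no ZMYND8 KO list, and 1 site in SQSTM1 was called in both ZMYND8 KO lists and in no SC list. SC replicate 2 alone held 23 of the sites and SC replicate 1 alone 2. No site was called in 1 ZMYND8 KO list and in no other list.

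**Figure D1:**
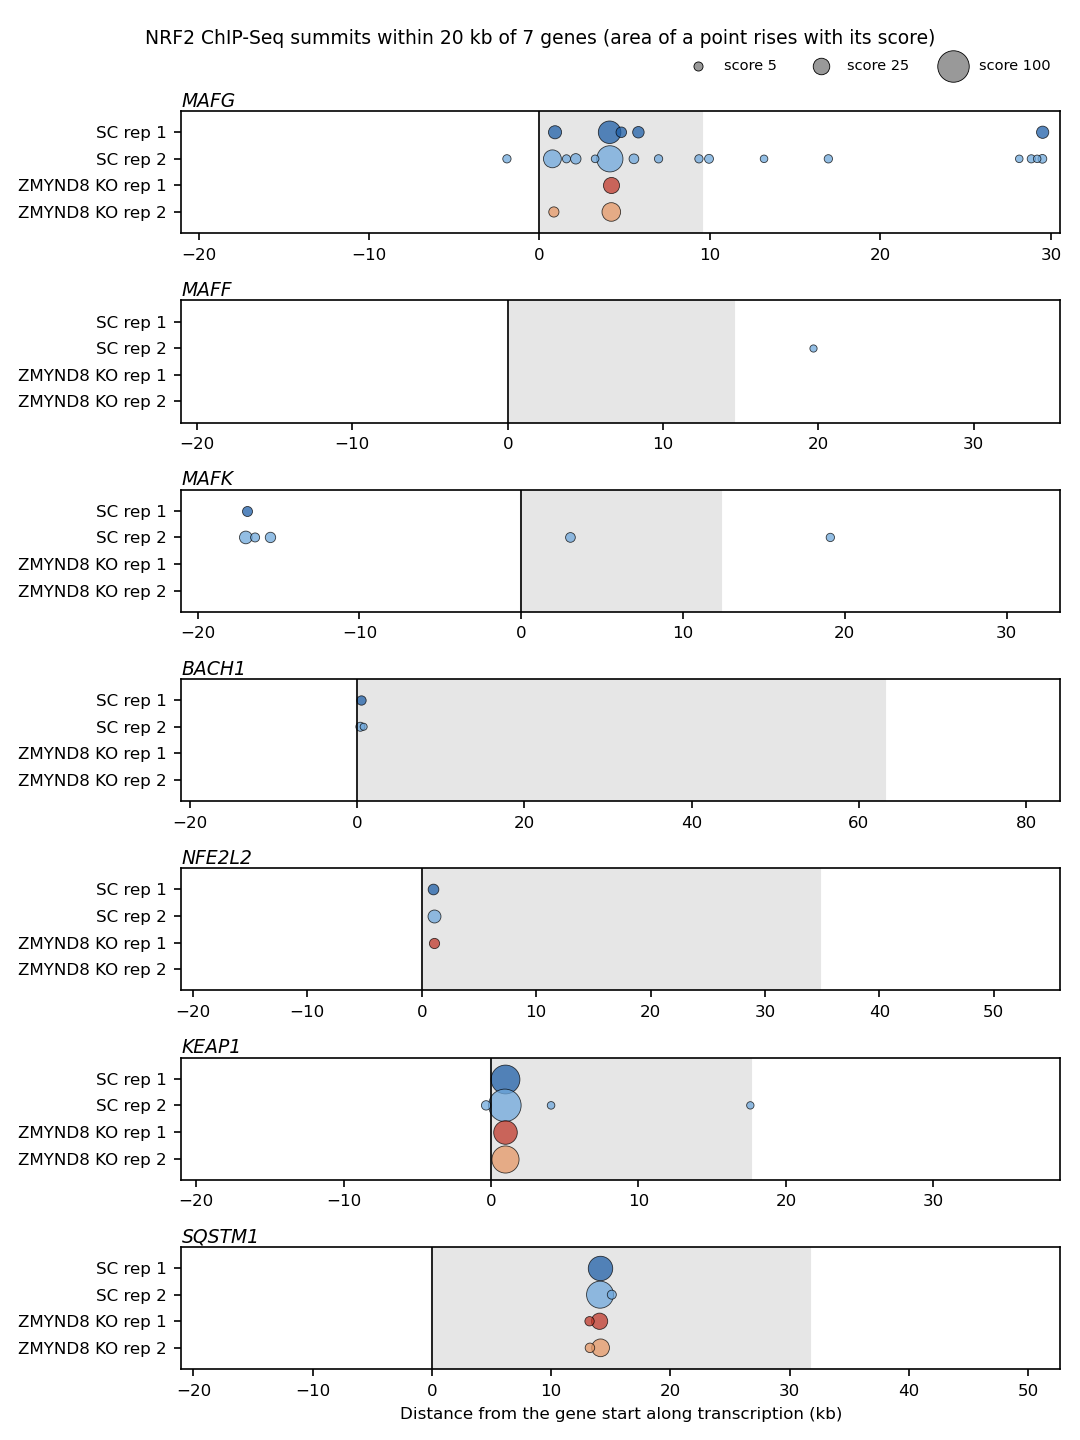
Position of every NRF2 summit within 20 kb of the 7 genes, in kb from the gene start in the direction of transcription (hg19). Each line of a panel is 1 library, the grey band is the gene body, and the area of a point rises linearly with its score. Large points in all 4 libraries stand 0.920 to 0.952 kb into KEAP1, 14.1 kb into SQSTM1 and 4.12 to 4.22 kb into MAFG, and the ZMYND8 KO lines are empty at MAFF, MAFK and BACH1.

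Promoter letters are shown for the members whose summits lay within 1000 bp of the gene start and whose promoter held a searched motif, which were KEAP1 and BACH1. The sequences are the 250 bases before a RefSeq transcript start in GRCh38.p14, since no hg19 sequence was used here. The KEAP1 sequence is chr19:10502772-10503021 on the minus strand, before the RefSeq start that lies 585 bp inside the gene. Its capitals mark 2 matches to the ARE core TGACNNNGC (N is any base), TGACACGGC as read and TGACTAAGC on the other strand.
KEAP1: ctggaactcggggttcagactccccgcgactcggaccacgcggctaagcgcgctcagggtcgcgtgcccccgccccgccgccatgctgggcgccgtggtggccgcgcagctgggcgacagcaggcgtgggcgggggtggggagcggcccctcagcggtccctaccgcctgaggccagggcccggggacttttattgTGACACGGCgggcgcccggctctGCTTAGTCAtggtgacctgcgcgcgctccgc
The BACH1 sequence is chr21:29298672-29298921 on the plus strand, before the first base of the gene. Its capitals mark the AP-1 site TGANTCA, a motif that resembles the ARE core and is bound by AP-1 factors.
BACH1: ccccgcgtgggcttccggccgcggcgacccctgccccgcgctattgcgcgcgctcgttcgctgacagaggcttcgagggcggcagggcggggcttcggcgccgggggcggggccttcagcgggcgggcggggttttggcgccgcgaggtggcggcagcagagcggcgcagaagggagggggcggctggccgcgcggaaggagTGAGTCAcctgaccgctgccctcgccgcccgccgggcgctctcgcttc
Counting the last base before the start as -1, the KEAP1 matches lay at -54 to -46 and at -31 to -23, and the BACH1 match at -48 to -42.

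Of 13 promoter windows of 6 members, 2 held an ARE core, the KEAP1 window above and a window of MAFF, and 1 held an AP-1 site, the BACH1 window above. Over all 35116 promoters of the RefSeq table, 10.9% held an ARE core and 6.57% an AP-1 site. Part of a MAF recognition element (TGCTGA, any 4 bases, then GC) was in none of the 13 windows and in 1.08% of all promoters. Both strands were searched. Promoters of MAFG, NFE2L2 and SQSTM1 held no match, and MAFK had no entry. A match describes these letters and is not a measured site.

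KEAP1, the adaptor that brings NRF2 to its ubiquitin ligase (hg19 chr19:10596796-10614417, minus strand), held the best-ranked summit of the 7 genes in every library. SC replicate 1 had it at 10613465 with a score of 83.3 and rank 21, and SC replicate 2 at 10613479 with a score of 107 and rank 17. ZMYND8 KO replicate 1 had it at 10613486 with a score of 54.7 and rank 23, and ZMYND8 KO replicate 2 at 10613497 with a score of 73.5 and rank 6. The 4 summits spanned 32 bp, the tightest of the sites shared by all lists, and both SC scores were above both ZMYND8 KO scores. Absolute ranks did not separate the genotypes, since ZMYND8 KO replicate 2 had the best rank and ZMYND8 KO replicate 1 the worst. As a percent of the list the ranks were 1.03% and 0.249% in SC and 5.84% and 1.26% in ZMYND8 KO, whose lists were much shorter.

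The KEAP1 summits lay 920 to 952 bp after the gene start, or 16669 to 16701 bp before the 3′ end of the gene in hg19. In GRCh38 the ARE cores printed above lie 16692 to 16700 and 16669 to 16677 bp before the 3′ end. Each distance was taken within its own build and no position was converted, and the 3′ ends of the annotations may differ, so whether the summits cover these letters was not tested. SC replicate 2 had 3 further summits at KEAP1, 335 bp before the start with a score of 5.66, 4071 bp after it with 2.39 and 17588 bp after it with 2.11. None of these had a summit of another list within 200 bp.

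SQSTM1 (hg19 chr5:179233388-179265078, plus strand) held its main site far from the first base of the gene, from which distances were counted. It scored 58.9 at 179247497 in SC replicate 1 (rank 32) and 72.8 at 179247483 in SC replicate 2 (rank 27). In ZMYND8 KO it scored 24.1 at 179247442 in replicate 1 (rank 72) and 29.3 at 179247527 in replicate 2 (rank 43). All 4 summits fell within 85 bp, 14054 to 14139 bp after the gene start, and both SC libraries had the higher scores and the better ranks. In GRCh38, the most internal of the 3 RefSeq starts of SQSTM1 lies 14512 bp after the first base of the gene. The promoter window before that start lies 17174 to 17423 bp before the 3′ end and held no searched motif. In hg19 the main summits lay 17551 to 17636 bp before the 3′ end, so the site may be close to this internal start. No position was converted, and this was not tested.

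A second SQSTM1 site was called only in ZMYND8 KO. It scored 5.56 at 179246602 in replicate 1, rank 309 of 394, and 5.87 at 179246635 in replicate 2, rank 350 of 477. The ZMYND8 KO summits were 33 bp apart and lay 840 and 892 bp from the main summit of their own list, and the nearest SC summits were 848 to 895 bp away. This was the only one of the 34 sites called in ZMYND8 KO without an SC summit within 200 bp. Within 1000 bp it did have an SC summit, the main site itself. SC replicate 2 had its own additional summit on the other side of the main site, at 179248469 with a score of 4.92.

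NFE2L2, the gene of NRF2 itself (hg19 chr2:178095031-178129859, minus strand), had 1 summit in each of 3 lists and none in ZMYND8 KO replicate 2, whose nearest summit lay 2.08 Mb away. The score was 8.31 at 178128873 in SC replicate 1, rank 601, and 13.9 at 178128789 in SC replicate 2, rank 375. ZMYND8 KO replicate 1 had a score of 7.36 at 178128785, rank 261 of its shorter list. These summits spanned 88 bp, 986 to 1074 bp after the gene start, and the ZMYND8 KO score was below both SC scores. Its rank was ahead of both SC ranks, in a list that was much shorter.

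MAFG, which encodes a small MAF partner of NRF2 (hg19 chr17:79876145-79885705, minus strand), had the most summits of the 7 genes, 5 and 16 in the SC lists and 1 and 2 in the ZMYND8 KO lists. Its main site lay 4115 to 4224 bp after the gene start. The main site scored 49.5 at 79881590 in SC replicate 1 (rank 44), 68.2 at 79881574 in SC replicate 2 (rank 31), 23.5 at 79881481 in ZMYND8 KO replicate 1 (rank 78) and 32.6 at 79881490 in ZMYND8 KO replicate 2 (rank 37). The SC scores were both above the ZMYND8 KO scores, while the absolute ranks of the genotypes overlapped. As a percent of the list the ranks were 2.17% and 0.455% in SC and 19.8% and 7.76% in the shorter ZMYND8 KO lists. Summits of the same genotype lay closer together, 16 bp apart in SC and 9 bp apart in ZMYND8 KO, than summits of different genotypes, which were 84 to 109 bp apart. The main sites of the other genes did not show this order. At KEAP1 summits were 14 and 11 bp apart within SC and ZMYND8 KO and 7 to 32 bp apart between them, and at SQSTM1 they were 14 and 85 bp apart within and 30 to 55 bp apart between them.

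A second MAFG site stood near the hg19 gene start, 760 to 914 bp into the gene. It scored 14.4 in SC replicate 1 (rank 278), 29.9 in SC replicate 2 (rank 113) and 7.30 in ZMYND8 KO replicate 2 (rank 297), and ZMYND8 KO replicate 1 had no summit there. The only ZMYND8 KO score was again below both SC scores. The gene body of MAFG is 9561 bp long in hg19 and 12975 bp long in GRCh38, so distances to its start depend on the annotation. The remaining MAFG summits were all from SC and scored lower than these 2 sites in their own list. A site 19944 to 19959 bp past the 3′ end was called in both SC lists, 15 bp apart, with scores of 12.1 and 4.41. SC replicate 1 had summits of 10.2 and 8.01 in the gene body without a counterpart within 200 bp, and 13 of the 18 MAFG sites were called in SC replicate 2 alone. Of the 16 MAFG summits of SC replicate 2, 12 had a score under 5.

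MAFK, another small MAF gene (hg19 chr7:1570350-1582679, plus strand), had 1 site in both SC lists and none in ZMYND8 KO. The site scored 6.90 at 1553375 in SC replicate 1 (rank 788) and 13.2 at 1553328 in SC replicate 2 (rank 412), 16975 and 17022 bp before the gene start. Its summits were 47 bp apart, and both lay upstream of the gene. SC replicate 2 had 4 more summits at MAFK with scores of 3.65 to 7.72, of which only that at 1573394, with a score of 6.28, was inside the gene. In the ZMYND8 KO lists the nearest summit to the gene lay 370 kb away in both replicates.

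MAFF, the third small MAF gene (hg19 chr22:38597939-38612517, plus strand), had a single summit among the 4 lists. It was in SC replicate 2 at 38617563, past the 3′ end, with a score of 1.87 and rank 6412 of 6816. The nearest summit to MAFF was 528 kb away in SC replicate 1 and 2.83 and 2.82 Mb away in ZMYND8 KO replicates 1 and 2. The small MAF genes therefore ran from summits in all lists at MAFG to 1 low-scoring summit at MAFF.

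BACH1, the repressor that competes for small MAFs and AREs (hg19 chr21:30671116-30734217, plus strand), had a site just after its start in both SC lists. The score was 5.56 at 30671619 in SC replicate 1 (rank 1073) and 4.92 at 30671509 in SC replicate 2 (rank 1788), 503 and 393 bp after the start. A score of 5.56 was below the median of SC replicate 1, and a score of 4.92 was above that of SC replicate 2. SC replicate 2 had another summit of 1.60 at 786 bp. The nearest ZMYND8 KO summit lay 8.35 Mb from BACH1 in both replicates. The SC site lay 62598 to 62708 bp before the 3′ end in hg19, and the AP-1 site printed above lies 63014 to 63020 bp before it in GRCh38. The distance of the SC site falls instead in another BACH1 promoter window, 62520 to 62769 bp before the 3′ end in GRCh38. That window held no searched motif. No position was converted, so which letters the summits cover was not tested.

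**Figure D2:**
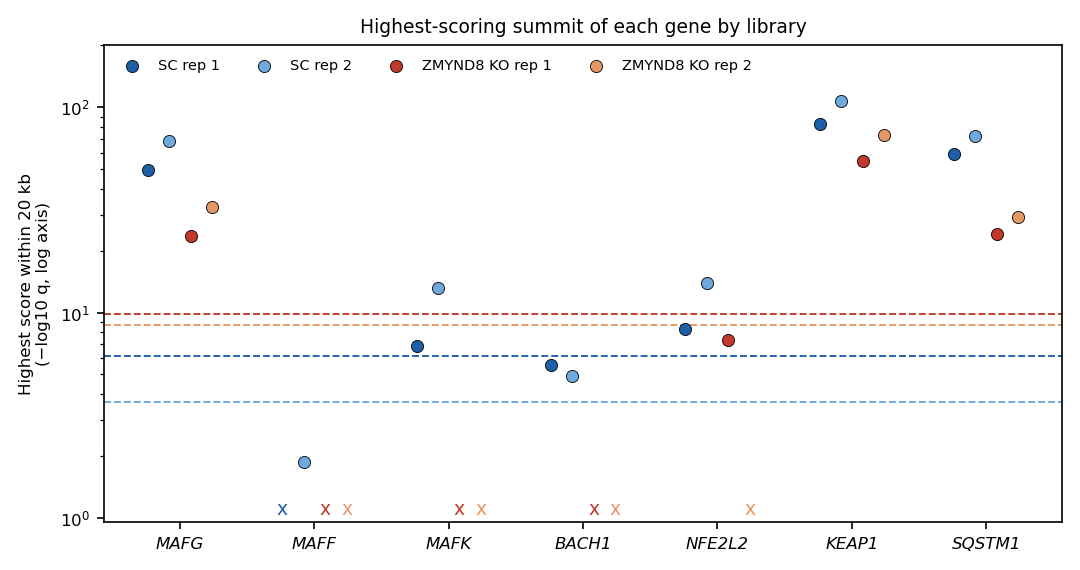
Highest score within 20 kb of each gene in each library (−log10 q, log axis), with the median score of each list as a dashed line in the color of the library and an x where no summit lay within 20 kb. KEAP1, SQSTM1 and MAFG stand above all medians in all 4 libraries, and BACH1 and MAFF never exceed a score of 5.56.

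Neighbouring genes share several of these windows. By the GRCh38.p14 table, other protein-coding genes lie within 20 kb of every member except BACH1, with 6 next to MAFG (ANAPC11, MYADML2, NPB, PCYT2, PYCR1 and SIRT7), TMEM184A next to MAFK and TMEM184B next to MAFF. A summit was assigned by distance alone, and which gene it acts on was not tested.

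Comparing SC with ZMYND8 KO, more of the 7 genes had a summit in SC. Genes with at least 1 summit numbered 6 and 7 in the SC libraries and 4 and 3 in the ZMYND8 KO libraries, with means of 6.5 ± 0.707 and 3.5 ± 0.707 (SD, n = 2 each). The groups did not overlap, and the two-sided exact permutation test over libraries gave p = 0.333, the lowest that 4 libraries in groups of 2 can give. The genes that lacked a summit in both ZMYND8 KO libraries were MAFF, MAFK and BACH1, and NFE2L2 lacked one in replicate 2 only. Across the genome cut into stretches of 60 kb, SC replicate 1 had a summit in 2.85% of stretches, SC replicate 2 in 9.01%, ZMYND8 KO replicate 1 in 0.550% and ZMYND8 KO replicate 2 in 0.717%. The stretches were laid without regard to genes, whereas the windows of the 7 genes were built around genes, so these shares are not a matched background. The windows of the 7 genes ran from 49.6 to 103 kb with a median of 57.6 kb, so some were longer than a stretch.

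Summits at the 7 genes averaged 20.5 ± 14.8 in SC and 5 ± 0 in ZMYND8 KO (SD, n = 2 each; exact permutation test, two-sided p = 0.333), and the SC count was 10 without SC replicate 2 and 31 without SC replicate 1. As a share of the list the order was the reverse. The 7 genes took 0.493% and 0.455% of the SC summits and 1.27% and 1.05% of the ZMYND8 KO summits, with means of 0.474% ± 0.0267 and 1.16% ± 0.156 (exact permutation test, two-sided p = 0.333). List length moves with genotype, and its part in either difference was not tested. When each list was limited to its 300 highest-scoring summits, with ties at the limit kept, each list had 4 summits at the 7 genes. Of the 7 genes, 3 then had a summit in each SC list and 4 and 3 in the ZMYND8 KO lists, so that neither the fewer genes nor the higher share of ZMYND8 KO remained. At that list length KEAP1, SQSTM1 and MAFG had a summit in every library, and NFE2L2 in ZMYND8 KO replicate 1 alone.

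Recurrence was then read per summit. SC replicate 1 had 10 member summits, of which 8 recurred in SC replicate 2 within 200 bp (80%, against 58.7% of the whole list), and SC replicate 2 had 31, of which 8 recurred in SC replicate 1 (25.8%, against 17.6%). In ZMYND8 KO, 4 of 5 member summits of each replicate had a summit of the other, against 68.8% of the list of replicate 1 and 56.8% of that of replicate 2. Each of these member shares was above that of its list, with few summits behind it. The shares were not matched for score, and SC replicate 1 had no member summit with a score under 5, where its list had 700.

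A ZMYND8 KO summit lay within 200 bp of 5 of the 10 member summits of SC replicate 1 (50%, Wilson 95% interval 23.7% to 76.3%), against 22.2% of its list. In SC replicate 2 it was 5 of 31 (16.1%, 7.09% to 32.6%), against 7.0%. In the other direction, 4 of 5 member summits of each ZMYND8 KO list had an SC summit (80%, 37.6% to 96.4%), against 91.1% of the list of replicate 1 and 88.1% of that of replicate 2, and the exception in both was the second SQSTM1 site. The intervals treat summits as independent and cover counting error only, although summits of 1 gene lie close together. The recurring summits of both SC lists were at the same 5 sites, so the shares of the SC lists are not independent. The differences from the whole lists were not tested.

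Recurrence went with the score within the SC lists. With a score of 20 or more, all 3 member summits of SC replicate 1 and all 4 of SC replicate 2 had a ZMYND8 KO summit, against 88.9% and 87.2% of the lists in that class. These were the main sites of KEAP1, SQSTM1 and MAFG and, in SC replicate 2, the second MAFG site. With a score of 5 to 20, 2 of 7 and 1 of 7 member summits had one, against 23.1% and 15.0%. With a score under 5, none of the 20 member summits of SC replicate 2 had one, against 1.01% of its list, and SC replicate 1 had no member summit in this class, where its list had 2.71%. Scores under 5 made up 64.5% of the member summits of SC replicate 2 and 73.8% of its list. Within each class the members thus stood near their list, and the NFE2L2 site was the lowest-scoring SC site with a ZMYND8 KO summit.

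**Figure D3:**
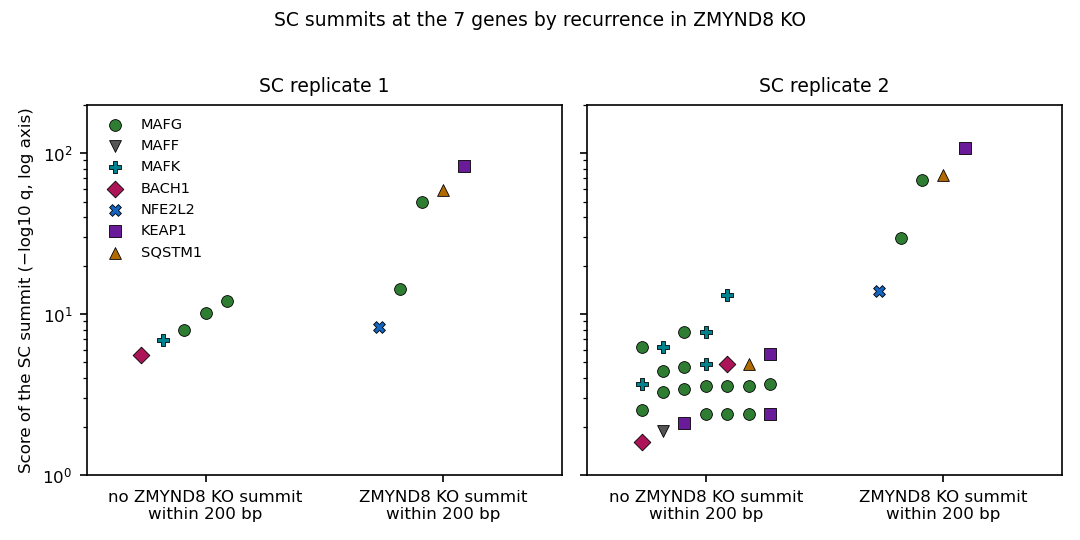
Score of each SC summit at the 7 genes (−log10 q, log axis), split by whether a ZMYND8 KO summit lay within 200 bp, with SC replicate 1 on the left and SC replicate 2 on the right and 1 symbol per gene. Points are spread sideways only to keep them apart. All summits with a score of 20 or more are in the column with a ZMYND8 KO summit, and the 2 columns overlap between scores of 8.31 and 12.1 in SC replicate 1.

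Sites called in all 4 lists allow scores and ranks to be compared over the same positions, and 229 such sites were found by anchoring on SC replicate 1 and searching each other list within 200 bp. The 229 sites had a median score of 23.9 and 24.3 in the SC lists and of 13.7 and 13.8 in the ZMYND8 KO lists. At MAFG, KEAP1 and SQSTM1 both SC scores were above both ZMYND8 KO scores, as at 147 of the 229 sites (64.2%), while the opposite held at 3.49% of sites. Lower scores in ZMYND8 KO were thus shared with most of the 229 sites and are not particular to the 3 genes. Depth is unknown, and its part in the scores was not tested.

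Ranks among the 229 sites take out a shift common to a whole library. KEAP1 ranked 16 and 14 in SC and 17 and 4 in ZMYND8 KO, so its ranks overlapped between genotypes. MAFG ranked 39 and 26 in SC and 65 and 34 in ZMYND8 KO, which also overlapped. SQSTM1 ranked 27 and 22 in SC and 60 and 39 in ZMYND8 KO, and was the only 1 of the 3 genes with both SC ranks ahead of both ZMYND8 KO ranks, as at 46 of the 229 sites (20.1%). The 3 genes stayed above the median score of the 229 sites in each library.

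**Figure D4:**
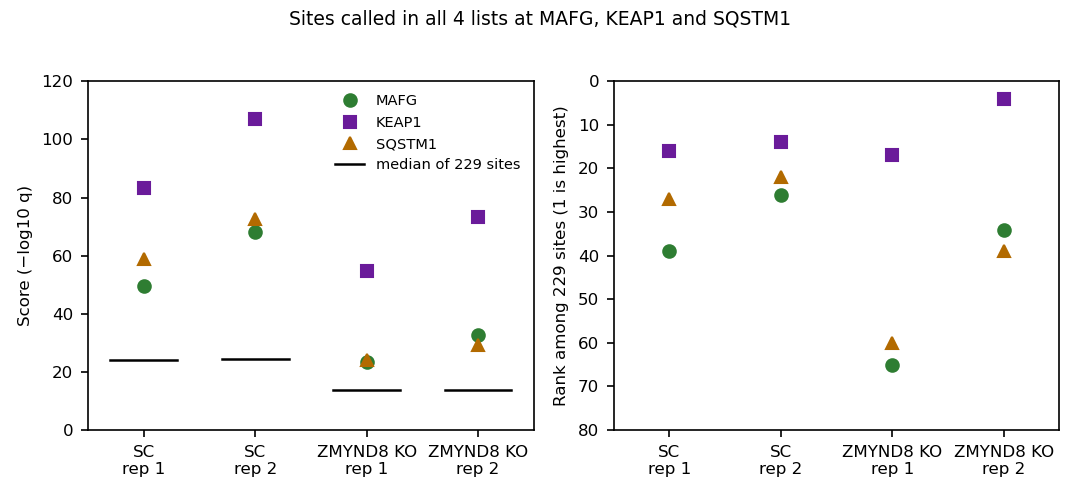
Score (left, −log10 q) and rank among the 229 sites called in all 4 lists (right, 1 is highest, axis inverted) for the sites of MAFG, KEAP1 and SQSTM1 in each library, with black bars at the median score of the 229 sites. KEAP1 is the highest of the 3 genes in every library, from 54.7 to 107, and the SQSTM1 ranks go from 27 and 22 in SC to 60 and 39 in ZMYND8 KO.

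No summit of any list lay just outside the limit of 20 kb. The farthest summits inside it lay 19.96 kb (SC replicate 1) and 19.94 kb (SC replicate 2) past the 3′ end of MAFG, and the nearest outside it lay 27.1 kb from MAFG and 27.6 kb from MAFK, both in SC replicate 2. Between 20 and 50 kb there were 9 summits, all of SC replicate 2, with scores of at most 5.85. SC replicate 2 had 21 summits within 5 kb, 24 within 10 kb and 40 within 50 kb, against 31 within 20 kb, SC replicate 1 had 8, 8 and 10, and both ZMYND8 KO lists had 5 at each distance.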

How the data were processed

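NRF2 ChIP-Seq of 4 libraries (MDA-MB-231 mammospheres, 2 of SC and 2 of ZMYND8 KO) was analysed. Chromatin was cross-linked, sonicated and immunoprecipitated by the authors, who called peaks per library with MACS2 and deposited 1 summit per peak with a score, read here as a −log10 q-value from its lowest values. The submitters' processing notes name FastQC 0.11.2, Bowtie2 2.2.3, Picard 1.127 and MACS2 2.0.10. A control library and the way duplicates were handled are not given in the sources used here. The notes name both hg19 and hg38. With hg19 gene bodies 6, 7, 4 and 3 of the 7 genes had a summit (SC replicates 1 and 2, then ZMYND8 KO replicates 1 and 2), and with GRCh38 gene bodies 2, 3, 0 and 0, so the lists were read as hg19.

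Groups came from the sample titles. All 7 genes were named whether or not they had a summit, and for a gene without one the nearest summit was given. The members, lists and tests were chosen with earlier results of these data known, and the score classes, the 60 kb stretches and the sites common to all lists were added after the lists had been seen. Gene bodies came with the choice of genes, and strands from the RefSeq promoter table, except MAFK, whose plus strand is from general knowledge. Other genes of the pathway were not located because no hg19 annotation was used. RefSeq sequences and names are from GRCh38.p14. Group differences were tested by exact permutation over libraries (two-sided), and shares given Wilson 95% intervals. The alternatives were 5, 10 and 50 kb, scores of 10 or more, only the 300 top summits of a list, summits within 500 bp counted once, sites within 100, 500 or 1000 bp, each library left out, and replicate numbers as pairs. Positions are counted from 1. Depth is unknown, so the precision that it gives was not computed. Functions were tested on simulated data. Python 3.11.15, numpy 2.4.6, scipy 1.17.1 and matplotlib 3.10.9 were used.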

Additional observations from a re-analysis of the deposited data

How the results depend on the processing

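The differences of ZMYND8 KO minus SC were -3 genes with a summit, -15.5 summits and 0.685 percentage points of the list. Limited to the top 300 summits of every list (ties kept), they were 0.5 genes, 0 summits and -0.0408 points, so the first and the last reversed. At a score of at least 10 they were -1 genes (exact permutation p = 1), -3 summits and 0.349 points. Within 5 kb of the gene bodies they were -2 genes, -9.5 summits and 0.808 points, and within 50 kb -3 genes, -20 summits and 0.619 points. Leaving out 1 library at a time gave -3.5 to -2.5 genes, -26 to -5 summits and 0.575 to 0.795 points; the extremes for summits were without SC replicate 1 (-26) and without SC replicate 2 (-5). Of the SC member summits with a ZMYND8 KO summit, the share rose from 50% to 100% (SC replicate 1) and from 16.1% to 100% (SC replicate 2) with the 300 highest-scoring summits, where 4 summits were left in each. For SC replicate 2 it was 50% among scores of 10 or more and 25.8% within 1000 bp. Shares of ZMYND8 KO member summits with an SC summit rose from 80% to 100% within 1000 bp and at a score of at least 10 in both replicates, and with the 300 highest-scoring summits in replicate 2, while replicate 1 then had 75% (3 of 4). Leaving out 1 library gave 40% for SC replicate 1, 12.9% for SC replicate 2 and 80% for both ZMYND8 KO replicates. Of 73 values under alternatives, 62 kept the sign of the main difference or, for the shares, stayed within the Wilson interval of the main value. No p-value entered this count, and the intervals are wide, so staying within them is a weak criterion. As replicate pairs (the replicate block) the differences were -3, -15.5 and 0.685, with an exact sign permutation p of 0.5, the smallest that 2 pairs allow. These differences equal the main ones by arithmetic, so their place among the 62 values carries no information. The differences between replicates 1 and 2 in summits per gene had a Pearson r of 0.84 between the genotypes across 7 genes and of 0.54 across 6 without MAFG (genes are not replicates). Only MAFG and NFE2L2 differed between the ZMYND8 KO replicates, so the value says little about pairing, and nothing in the labels ties a replicate number to a batch. The exact permutation test cannot pass a threshold of 0.05 with 2 libraries against 2. Depth and the background signal behind a score are unknown, so a missing summit cannot be told apart from a peak under the threshold.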

Other observations

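Beyond 20 kb, SC replicate 2 had summits 37.8 kb past the 3′ end of SQSTM1 with a score of 5.85, 40.2 kb before its start with 4.04, and 39.8 kb past the 3′ end of KEAP1 with 2.21. No other list had a summit between 20 and 50 kb of any of the 7 genes. A group of 4 SC replicate 2 summits, with scores of 2.39 to 4.41, lay 18.6 to 19.9 kb past the 3′ end of MAFG, beside the SC replicate 1 summit of 12.1.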
